A study of Canis lupus familiaris with 21 samples.

Results

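The genes described are 86 splicing factors and RNA helicases, compared between different tumors of stages 1 to 3 of canine cutaneous histiocytoma (CCH). CCH is a skin tumor of Langerhans cells in young dogs that usually disappears by itself. The last stage, in which regression can be seen histologically, was left out by the study. They were chosen by name: heterogeneous nuclear ribonucleoproteins (hnRNPs, HNRNP), serine/arginine-rich splicing factors (SR proteins, SRSF), the SF3A and SF3B subunits, and helicases of the DDX and DHX families. A gene also had to lie on an autosome and to reach 10 counts in at least 5 samples. Of 21399 entries in the count tables, 91 carried such a name. DDX3X and HNRNPH2 lie on the X chromosome and DDX25, DDX43 and SRSF12 stayed below the count rule, which left the 86 genes, among 12505 entries of the tables past that rule.

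The study compared tumor stages in 21 formalin-fixed, paraffin-embedded samples from 32 dogs, staged by how far lymphocytes had entered the tumor. Group 1 held 5 stage 1 tumors (0.5 to 5 years in the 4 dogs with a known age), group 2a 5 tumor cell-enriched areas of stage 2 tumors (0.6 to 3 years), group 2b 6 lymphocyte-enriched areas of stage 2 tumors (0.3 to 6 years) and group 3 5 lymphocyte-enriched samples of stage 3 tumors (1.5 to 9 years). In group 2b, 4 samples were pools of several dogs and 2 came from a single dog, whereas each sample of the other groups came from 1 dog. The 0.3 years are the label's value for 1 pool, whose youngest dog is 0.5 years old in the study's sample list. That list gives no age for 1 dog of another pool. No healthy skin and no treated animals are among the samples, so each level is read against the other groups only. All groups are tissue areas and not sorted cells, so fewer cells of a type and less RNA per cell cannot be told apart.

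In a eukaryotic nucleus the spliceosome removes introns from new transcripts. Its U2 particle carries the SF3A and SF3B complexes, which hold the branch point of the intron, and DEAH-box (DHX) and DEAD-box (DDX) helicases drive its rearrangements with ATP. SR proteins mostly promote the use of nearby splice sites, and hnRNPs coat the transcript and often oppose them. Many other DDX and DHX helicases work outside splicing, in the assembly of ribosomes, in the export, translation and decay of mRNA, or as sensors of viral RNA. The 86 genes were 19 hnRNPs, 16 helicases of ribosome biogenesis, 12 helicases of the spliceosome, 11 helicases of transcription, export, translation and decay, 10 SR proteins, 9 SF3 subunits, 3 innate RNA sensors, 2 helicases of organelles and 4 other helicases.

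Totals ranged from 2113393 to 3559404 counts per sample (median 2514859), and 76 of the 86 genes had at least 10 counts in every sample. The genes took 1.07% ± 0.0664 (SD, n = 5) of all counts in group 1, 1.2% ± 0.0811 (n = 5) in group 2a, 1.18% ± 0.0516 (n = 6) in group 2b and 1.16% ± 0.0392 (n = 5) in group 3. DV200, the percentage of RNA fragments above a length cutoff, averaged 68.5% ± 2.46 (SD, n = 5) in group 1, 73.7% ± 2.69 (n = 5) in group 2a, 74.6% ± 1.73 (n = 6) in group 2b and 73.2% ± 2.09 (n = 5) in group 3. The label of 1 sample of group 3 differs from the study's sample list in DV200, and the label was used here and in the covariate fits. The tissue labels were checked on marker lists. The summed normalized count of 7 T cell markers was 56.7 to 1945 in group 1 and 480 to 1442 in group 2a, below the 2719 to 4029 of group 2b and the 2675 to 4430 of group 3, while 6 histiocyte markers overlapped between all groups (3994 to 7271). In group 1, 1 of 5 B cell markers was at 0 in every sample, and in group 2a likewise 1 of 5, not necessarily the same gene. A sum of 6 keratinocyte markers spread widely, from 705 to 11748 in group 1, 228 to 2869 in group 2a, 175 to 1803 in group 2b and 556 to 5791 in group 3.

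Between the tumor cell-enriched groups, 2 genes rose from stage 1 to stage 2, the ribosomal RNA processing helicase DDX52 and HNRNPC, an hnRNP that binds uridine-rich tracts of new transcripts. They were 2 of 85 genes of the set tested, all higher, against a background of 0.527% of the 11200 genes tested in group 2a against group 1. A gene was called when its p-value, adjusted by Benjamini and Hochberg's method over all genes tested, was at most 0.05 in edgeR's quasi-likelihood test on the raw counts. The wider set leaned the same way without passing that test. The log2 fold change was above 0 for 58 of the 85 genes, with a median of 0.18 against -0.015 over all genes tested. At an unadjusted p under 0.05, 20 were higher and 4 lower in group 2a, 28.2% of the set against 17.9% of all genes.

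DDX52 (DDX52_3, chromosome 9, 37333761 to 37356661 of UU_Cfam_GSD_1.0) had normalized counts, which are raw counts divided by a size factor of the sample, of 7.6, 10.3, 2.7, 12.6 and 10.9 in group 1. In group 2a they were 36.2, 39.6, 37.8, 31.6 and 30.0. Every sample of group 2a was thus above every sample of group 1. The log2 fold change was 1.98 (SE 0.379, adjusted p = 0.0451, edgeR), or 3.95-fold, and the exact permutation test on log2 of the normalized count plus 1 gave p = 0.00794, the smallest that 5 samples against 5 allow. Every gene without overlap gets that unadjusted p, so it only restates the separation of the samples. In the lymphocyte-enriched areas it stood at 21.4 to 43.1 (median 30.8) in group 2b and at 26.0, 18.9, 20.4, 37.3 and 31.4 in group 3, so that group 1 alone was low. DDX52 rested on 3 to 16 raw counts in group 1 and 27 to 39 in group 2a.

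HNRNPC (HNRNPC_2, chromosome 15, 18365297 to 18424248) showed a like pattern on few counts. Its normalized counts were 10.4, 3.7, 10.02, 9.4 and 6.6 in group 1 and 33.4, 21.9, 35.5, 30.4 and 27.1 in group 2a, without overlap. The log2 fold change was 1.87 (SE 0.353, adjusted p = 0.0435, edgeR). Group 2b spanned 6.5 to 43.2 (median 21.1) and group 3 held 17.99, 33.0, 10.7, 17.1 and 14.7, so group 2b overlapped both of the other groups and group 3 overlapped group 2a. The entry had 4 to 12 raw counts in group 1 and 21 to 36 in group 2a, and it is 1 of 2 in the set whose name ends in 2 and not 3, an ending whose meaning is not given in the sources used here. HNRNPC is known as an abundant hnRNP, so these counts are unusually few for it, and whether the entry covers the main 3′ end of the gene was not tested.

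Both calls in group 2a against group 1 depended on single libraries. Leaving out any 1 of the 10 libraries except group 1 replicate 4 left 0 genes of the set called (0 to 39 of all genes), as did DV200 as a covariate (0 of all genes, with 2.31 and an adjusted p = 0.474 for DDX52 and 1.39 and 0.516 for HNRNPC). DESeq2 called 8 of the set, 9.41%, and 632 genes in all, 5.64%. DV200 was lower on average in group 1 than in group 2a, and its part in the results was not tested beyond the covariate fit. The tested keratinocyte markers had a median log2 fold change of -2.24, and their part was not tested.

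The genes that DESeq2 added were the helicases DDX46, DDX55, DDX59 and DDX27 and the SR protein SRSF11, which had log2 fold changes of 0.76 to 1.58 in edgeR, and HNRNPA0, with -0.53. DDX46 is the helicase that readies the U2 particle for the branch point, and DDX55 and DDX27 are nucleolar helicases of the large ribosomal subunit. In edgeR DDX55 (log2 fold change 0.78, SE 0.164, adjusted p = 0.0508), DDX46 (0.76, SE 0.162, adjusted p = 0.0512) and DDX59 (1.58, SE 0.337, adjusted p = 0.0512) lay just outside the threshold. SRSF11 (adjusted p = 0.0814), DDX27 (adjusted p = 0.118) and HNRNPA0 (adjusted p = 0.121) lay further out. The samples did not overlap for 10 of the 85 genes, 7 higher and 3 lower in group 2a, which is 11.8% of the set against 5.65% of all genes. The higher ones were DDX52, HNRNPC, DDX59, DDX55, DDX46, DHX16 and SRSF4, and the lower ones DHX35, HNRNPA0 and HNRNPK.

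DHX35, a helicase of the catalytic spliceosome, had normalized counts of 19.8, 17.8, 15.5, 22.8 and 22.9 in group 1 and 10.2, 12.5, 8.9, 1.2 and 10.7 in group 2a (log2 fold change -1.16, SE 0.456, adjusted p = 0.211, edgeR). HNRNPA0, which binds AU-rich elements, had 550, 652, 575, 601 and 817 in group 1 and 540, 490, 414, 394 and 360 in group 2a. HNRNPK, which binds poly(C), had 2308, 2460, 2313, 2310 and 2658 against 2222, 2147, 2085, 2031 and 1936, and edgeR estimated -0.20 on the log2 scale (SE 0.121, adjusted p = 0.406). None of these 3 passed the adjusted threshold in edgeR, and only HNRNPA0 did in DESeq2.

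**Figure D1:**
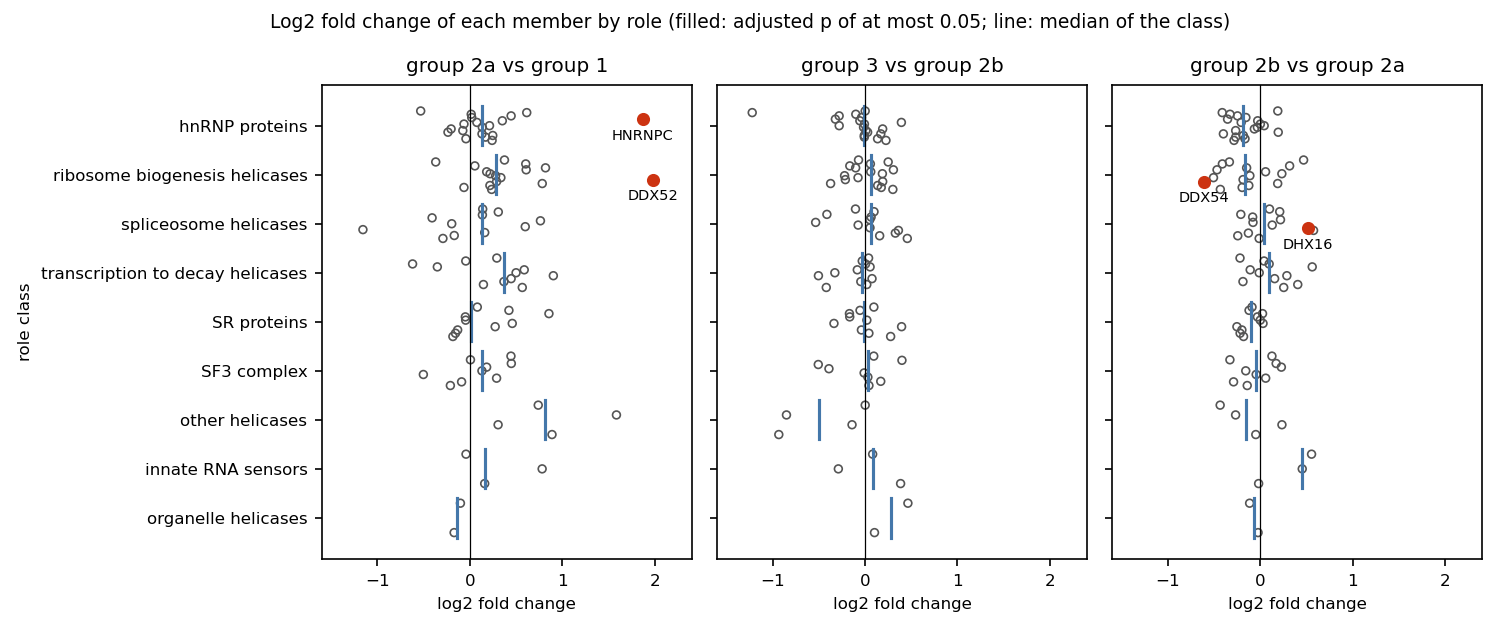
Each point is the log2 fold change of 1 gene, by role class (vertical axis), in the 3 comparisons, filled where edgeR's adjusted p was at most 0.05, and the blue line is the median of the class. HNRNPC and DDX52 stand apart on the right in group 2a against group 1, no point is filled in group 3 against group 2b, and DDX54 and DHX16 are filled on opposite sides of 0 in group 2b against group 2a.

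By role, the lean towards group 2a was uneven. The 16 ribosome biogenesis helicases had a median log2 fold change of 0.28, with 14 above 0 and 5 at an unadjusted p under 0.05, all higher. Of all genes tested 9.54% were higher and 8.37% lower at that p. The 11 helicases of transcription, export, translation and decay had a median of 0.37, with 4 higher and 1 lower at that p. The 19 hnRNPs had a median of 0.13, the 9 SF3 subunits of 0.13 with none past an unadjusted p of 0.05, the 11 spliceosome helicases tested of 0.14 and the 10 SR proteins of 0.017. All 4 other helicases lay above 0 (0.31 to 1.58), and both organelle helicases below it (-0.17 and -0.10). These medians are descriptions, and classes were not tested against each other.

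Among other genes of RNA processing, 3 of 53 further spliceosome components tested rose in group 2a, beside 0.527% of all genes called. None of the 18 SR-related proteins and SR kinases was called. The risers were PUF60, a poly(U)-binding splicing factor, at 1.31 on the log2 scale (SE 0.236, adjusted p = 0.0399, edgeR), CWC15 (1.22, SE 0.223, adjusted p = 0.0399, edgeR), a subunit of the activated spliceosome, and PPIG (1.13, SE 0.221, adjusted p = 0.0479, edgeR), a prolyl isomerase with an SR domain. At an unadjusted p under 0.05, 20 of the 53 spliceosome components and 9 of the 18 SR-related genes were higher and 0 of either were lower. Of all genes tested 9.54% were higher and 8.37% lower at that p. The median log2 fold change was 0.28 and 0.43 for these lists. As in the set itself these calls depended on single libraries, being lost in 9 (PUF60), 8 (CWC15) and 9 (PPIG) of the 10 fits that left out 1 library, and with DV200 as a covariate PUF60 was at 0.78 (adjusted p = 0.525, edgeR). No gene was called among 44 other splicing regulators, 27 genes of the exon junction, nonsense-mediated decay and export, 12 further RNA helicases or 21 genes of 3′ end processing.

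From stage 2 to stage 3, within the lymphocyte-enriched areas, no gene of the set was called by edgeR. In group 3 against group 2b, 0 of 85 genes tested passed, against 0.111% of the 11685 genes tested, and DESeq2 called 2 (DDX46 and SF3B1), 2.35% of the set against 1.58% of all genes in that test. At an unadjusted p under 0.05 there were 3 higher and 6 lower, 10.6% of the set against 13.1% of all genes. The median log2 fold change was 0.006 for the set and 0.0062 for all genes tested. In 3 genes all samples of group 3 lay below all of group 2b, DDX46, SF3B1 and DHX57, which is 3.53% of the set against 2.11% of all genes. RQN, an RNA integrity score, was lower on average in group 2b than in group 3 in the study's sample list. With RQN as a covariate 0 of the set and 0 of all genes were called. The part of RNA integrity in these values was not tested beyond that fit.

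DDX46 had 384 ± 62.2 normalized counts in group 2b (lowest 307, median 373, highest 461) and 215, 297, 280, 266 and 268 in group 3. The log2 fold change was -0.53 (SE 0.14, adjusted p = 0.152, edgeR), with an exact permutation p = 0.00433, the smallest that 6 samples against 5 allow. Any gene without overlap gets that unadjusted p, so it adds nothing to the separation of the samples. SF3B1, the branch-point subunit that is often mutated in human myelodysplastic syndromes, ranged from 564 to 761 (median 730) in group 2b and was 556, 499, 510, 558 and 554 in group 3. EdgeR put the difference at -0.39 on the log2 scale (SE 0.115, adjusted p = 0.195). DHX57 ranged from 43.5 to 71.3 in group 2b and was 9.0, 39.6, 27.2, 25.2 and 36.7 in group 3, where edgeR gave -0.93 on the log2 scale (SE 0.315, adjusted p = 0.245).

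The largest difference in size was that of HNRNPA1, named here after its value was seen, at -1.22 (SE 0.359, adjusted p = 0.195, edgeR), followed by DHX57. HNRNPA1 is known for many processed copies in mammalian genomes, and the handling of reads with several matches is not given in the sources used here. The 3 higher genes with an unadjusted p under 0.05 were SRSF5 (0.40), HNRNPDL (0.39) and SRSF9 (0.28), with adjusted p of 0.266 to 0.327 in edgeR, and the highest value of the set was 0.46. Between groups 2b and 3 the tested B cell markers had a median log2 fold change of -1.45 and the keratinocyte markers of 1.98, and their part in these values was not tested. No gene of the 6 lists of other RNA processing genes was called in this comparison. The SR-related proteins and SR kinases had a median of -0.22, with 4 lower and 0 higher at an unadjusted p under 0.05. Of all genes tested 6.04% were lower and 7.03% higher at that p.

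Lymphocyte-enriched and tumor cell-enriched areas of stage 2 differed in many genes but in few of these. In group 2b against group 2a, 2 of 86 genes were called, 2.33% of the set against 16.5% of the 11545 genes tested. At an unadjusted p under 0.05 they were 4 higher and 10 lower, 16.3% of the set against 30.0% of all genes, and the samples did not overlap for 3, or 3.49% against 10.5%. The median log2 fold change was -0.079 for the set and -0.015 for all genes tested. The tested log2 fold changes of the set ran from -0.60 to 0.58, whereas 6 of 7 T cell markers and 5 of 5 B cell markers were called higher in group 2b, with medians of 2.03 and 5.26. RQN, an RNA integrity score, was lower in every sample of group 2b than in every sample of group 2a in the study's sample list. With RQN as a covariate 0 of the set and 42 of all genes were called. The part of RNA integrity in this comparison was not tested beyond that fit.

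**Figure D2:**
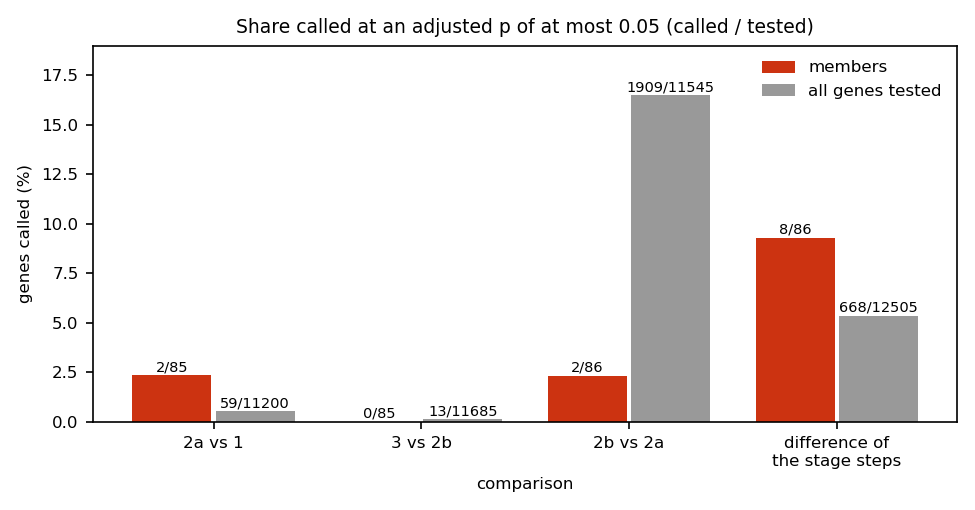
Bars give the percentage of genes with an adjusted p of at most 0.05 in edgeR, for the splicing factors and RNA helicases and for all genes tested, with the number called over the number tested above each bar. The set lies below all genes in group 2b against group 2a (2.33% and 16.5%) and above them in group 2a against group 1 and in the difference of the stage steps, which is defined further on.

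DDX54, a nucleolar helicase, fell in group 2b. Its normalized counts were 212, 190, 147, 244 and 236 in group 2a and 99.0 to 183 (median 133) in group 2b, so the groups overlapped through group 2a replicate 3. The log2 fold change was -0.60 (SE 0.174, adjusted p = 0.029, edgeR). DHX16, the helicase that activates the assembled spliceosome, rose. It had 75.1, 74.0, 93.3, 118.1 and 93.0 in group 2a and 118.0 to 153 (median 124) in group 2b, where all but 1 of the samples lay above group 2a, and edgeR gave 0.52 on the log2 scale (SE 0.157, adjusted p = 0.0372).

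DHX16 was also low in group 1, at 57.6, 68.3, 69.2, 44.9 and 60.1, and stood at 115 to 173 in group 3. Its group means were thus 60.0 ± 9.9 (SD, n = 5), 90.7 ± 17.9 (n = 5), 130.0 ± 14.8 (n = 6) and 135 ± 27.7 (n = 5) for groups 1, 2a, 2b and 3, with groups 2b and 3 differing by less than the spread between samples. DDX24, a nucleolar helicase, lay higher in every sample of group 2b (306 to 388) than in group 2a (248 to 303), at 0.32 on the log2 scale (SE 0.119, adjusted p = 0.0845, edgeR). HNRNPA2B1, an hnRNP that also sorts RNA for transport, was lower without overlap, at 1621 to 1917 against 2007 to 2615, with -0.33 (SE 0.114, adjusted p = 0.0674, edgeR). SF3B5, named after its value was seen, was the other gene without overlap and lower in group 2b (log2 fold change -0.29, adjusted p = 0.125, edgeR).

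Both calls in group 2b against group 2a depended on single libraries. DDX54 was lost without group 2a replicate 4 or 5 or group 2b replicate 1, 3, 4 or 5, and DHX16 without group 2a replicate 1, 2, 3 or 5 or group 2b replicate 2, 3, 4, 5 or 6. Of all genes tested in this comparison 16.5% were called. Of the other lists, 4 of 18 SR-related proteins and SR kinases, 4 of 43 other splicing regulators and 2 of 21 genes of 3′ end processing were called. A further 1 of 12 further RNA helicases and 1 of 28 genes of the exon junction, decay and export were called, and 0 of 53 spliceosome components. Only the SR-related list, on 4 calls, was above the share of all genes, and the other lists were below it. MBNL3, a muscleblind-like splicing regulator, rose most (log2 fold change 2.36, SE 0.372, adjusted p = 0.000807, edgeR). RBM38 (0.94), SMG6 (0.75), SCAF8 (0.61), CLK1 (0.59), a kinase of SR proteins, CELF1 (0.44) and SREK1 (0.42) rose too. PABPC4 (-0.82), PABPC1 (-0.75), ASCC3 (-0.73), SRPK2 (-0.61) and PCBP2 (-0.48) fell. PABPC4 and PABPC1, which are poly(A)-binding proteins, were the only genes called in the list of 3′ end processing. Without 1 library CLK1 was lost in 10 of 11 fits, CELF1 and SREK1 in 8 each, PCBP2 in 7 and SMG6 in 6, whereas MBNL3, RBM38, SCAF8, SRPK2, ASCC3, PABPC4 and PABPC1 were called in all 11.

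The largest number of calls came from setting both stage steps against each other. The contrast takes the log2 difference of group 2a from group 1 and subtracts that of group 3 from group 2b, in 1 edgeR fit of all 21 samples. It equals groups 2a and 2b together minus groups 1 and 3 together, so a gene high in stage 2 areas scores above 0 and a change in either step can produce a call. It draws on the same samples as the comparisons above, and a repeated value is therefore no separate evidence. In it 8 of 86 genes were called, 9.30% of the set against 5.34% of the 12505 genes tested. All 8 were higher, against 3.16% of all genes called higher, and the median value was 0.12 for the set and -0.026 for all genes.

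**Figure D3:**
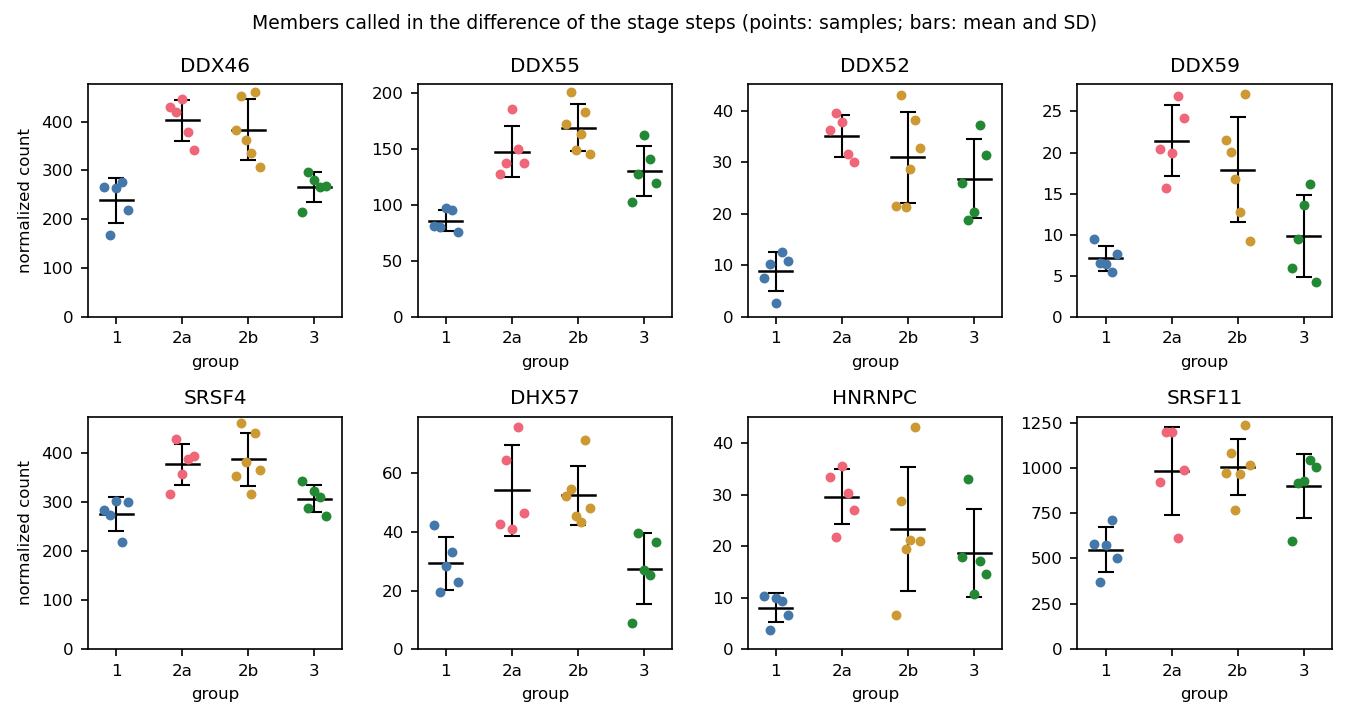
Normalized counts (vertical axes, from 0) of the 8 genes called in the difference of the stage steps, with 1 point per sample and the mean and SD of each group (5 samples in groups 1, 2a and 3 and 6 in group 2b). DDX46 has all 11 stage 2 samples above all 10 of stages 1 and 3, whereas DDX52 is low in group 1 only.

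The 8 genes were the spliceosomal helicase DDX46 (chromosome 11, 22848522 to 22921627), the ribosome biogenesis helicases DDX55 (chromosome 26, 6251877 to 6265689) and DDX52, the helicases DDX59 (chromosome 7, 2213129 to 2287634) and DHX57 (chromosome 17, 31016166 to 31074493), the SR proteins SRSF4 (chromosome 2, 70801912 to 70828510) and SRSF11 (chromosome 6, 76015682 to 76043946), and HNRNPC. They lie on 8 different chromosomes. The RefSeq span of DHX57 overlaps another protein-coding gene, LOC100685565, that of DDX59 a long noncoding RNA, that of DDX46 a pseudogene and that of SRSF11 an snRNA, and strand-aware counting is not given in the sources used here. The other 4 spans overlap no other gene.

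Of the 8, DDX46 alone had no overlap between the stage 2 samples and the rest. Group 1 had 266, 168, 263, 277 and 219 normalized counts, group 2a 430, 419, 445, 379 and 342, and groups 2b and 3 the values given above. All 11 stage 2 samples (lowest 307) lay above all 10 samples of stages 1 and 3 (highest 297). The contrast was 1.29 (SE 0.209, adjusted p = 0.0044, edgeR), beside separate values of 0.76 for group 2a against group 1 and of -0.53 for group 3 against group 2b.

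DHX57 and DDX59 were also lower on average both in group 1 and in group 3. DHX57 had 42.5, 19.7, 28.2, 33.1 and 22.9 normalized counts in group 1 and 42.7, 64.6, 41.1, 76.0 and 46.5 in group 2a, so that 10 of 11 stage 2 samples were above all samples of stages 1 and 3. Its contrast was 1.82 (SE 0.43, adjusted p = 0.0187, edgeR). DDX59, mutated in a human orofaciodigital syndrome, had 9.4, 6.6, 6.4, 5.5 and 7.6 in group 1, 20.4, 15.6, 19.996, 26.9 and 24.2 in group 2a, 9.3 to 27.1 (median 18.4) in group 2b and 6.0, 9.4, 13.6, 16.1 and 4.2 in group 3. Its contrast was 2.43 (SE 0.549, adjusted p = 0.0154, edgeR), on 7 to 10 raw counts in group 1 and 4 to 16 in group 3.

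SRSF4, a long SR protein that takes part in constitutive and alternative splicing, had the smallest value of the 8. It had 283, 272, 301, 218 and 299 normalized counts in group 1, 315, 428, 357, 386 and 393 in group 2a, 316 to 461 (median 373) in group 2b and 343, 287, 321, 309 and 271 in group 3. Its contrast was 0.79 (SE 0.182, adjusted p = 0.0162, edgeR), and 9 of 11 stage 2 samples lay above all samples of stages 1 and 3. DDX55 had 81.3, 80.5, 97.5, 95.3 and 75.4 in group 1 against 127, 138, 186, 150 and 138 in group 2a, 145 to 201 (median 168) in group 2b and 103, 127, 162, 141 and 119 in group 3. Its contrast was 1.15 (SE 0.21, adjusted p = 0.00699, edgeR), with the mean of group 3 between those of groups 1 and 2b.

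For DDX52, HNRNPC and SRSF11 the step from group 1 carried most of the contrast. DDX52 had a contrast of 2.19 (SE 0.455, adjusted p = 0.0108, edgeR), of which group 3 against group 2b gave only -0.21 (95% interval -0.80 to 0.37). HNRNPC had 2.19 (SE 0.569, adjusted p = 0.0305, edgeR), with -0.32 (-1.17 to 0.53) in that step. SRSF11, an SR-like protein that meets U2AF at the 3′ splice site, had 577, 372, 574, 712 and 503 normalized counts in group 1, 922, 1199, 1199, 614 and 986 in group 2a, 766 to 1239 (median 993) in group 2b and 597, 919, 925, 1045 and 1003 in group 3. Its contrast was 1.02 (SE 0.271, adjusted p = 0.0334, edgeR), and group 2a overlapped group 1 through 1 sample.

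**Figure D4:**
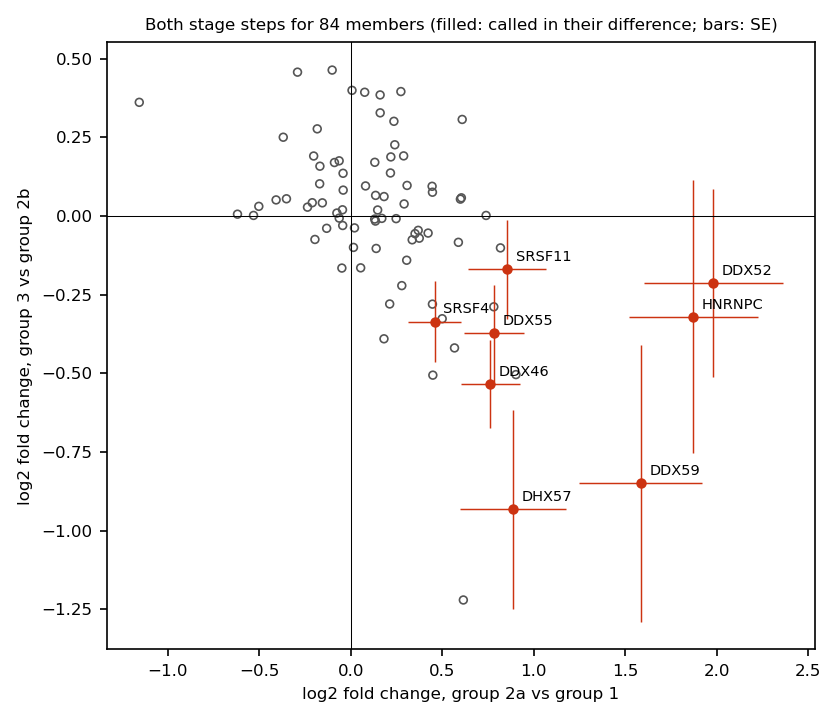
Each point is 1 of the 84 genes tested in both stage comparisons, with the log2 fold change of group 2a against group 1 on the horizontal axis and that of group 3 against group 2b on the vertical axis. Filled points, with SE bars, are the 8 genes called in the difference of the 2 steps, which all lie to the right and below 0.

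DDX46, DDX55, DDX52, DDX59, SRSF4 and DHX57 stayed called in all 21 fits that left out 1 library. HNRNPC was lost without group 1 replicate 2, group 2a replicate 3, group 2b replicate 2 or 5 or group 3 replicate 5 (adjusted p up to 0.0627, edgeR), and SRSF11 without 9 of the 21 libraries (group 1 replicates 2 and 5, group 2a replicates 2, 3 and 5, group 2b replicates 2, 4 and 5, and group 3 replicate 1; adjusted p up to 0.0633). With DV200 as a covariate only DDX52 stayed called (adjusted p = 0.0244, edgeR), DDX46 had 1.15 (adjusted p = 0.0543), and 60 genes of the whole table were called in place of 668. When group 2b was cut to its 2 samples of a single dog, 0 of the set and 0 of all genes were called. With only its 4 pooled samples 7 of the set and 434 of all genes were called. The 5 keratinocyte markers tested had a median of -4.23 in this contrast, and their part in it was not tested. That of DV200 was not tested beyond the covariate fit.

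Other RNA processing genes were called in the same contrast, in which 3.16% of all genes were called higher and 2.18% lower, and 60 genes in all with DV200 as a covariate. Of 54 further spliceosome components 11 were higher and 2 lower, of 19 SR-related proteins and SR kinases 7 were higher and 0 lower, and of 21 genes of 3′ end processing 5 were higher and 1 lower. Of 28 genes of the exon junction, decay and export 5 were higher, of 12 further RNA helicases 2 were higher, and of 45 other splicing regulators 5 were higher and 2 lower. The SR-related TRA2A (1.34), PNN (1.15) and SREK1 (1.14) had adjusted p of 0.0173, 0.0108 and 0.00699 in edgeR. The splicing factor EFTUD2 (1.71), a GTPase of the U5 particle, PPIG (1.43) and CWC15 (1.38) led the spliceosome components, and PLRG1 (-0.84) and ISY1 (-0.76) were lower. Among the other splicing regulators TAF15 (4.83), QKI (3.755) and RBM6 (1.18) were higher, and ESRP2 (-3.64) and RBM45 (-0.92) were lower. In this list 44 genes were tested in group 2a against group 1 (-1.26 to 1.598) and 41 in group 3 against group 2b (-0.782 to 0.981). Those ranges are too narrow for the values of TAF15, QKI and ESRP2. Each of them thus had too few samples with 10 counts to be tested in at least 1 stage comparison, and its value rests on few counts. UPF3A (2.72), THOC1 (1.75) and UPF2 (1.54) led the exon junction, decay and export list. PCF11 (1.38), which ends transcription at the poly(A) site, WDR33 (1.11) and RBBP6 (1.0) were higher in the 3′ end processing list. The helicases HELZ (1.19) and YTHDC2 (1.17) were higher too. CPSF2, of the 3′ end cleavage complex, was lower (-0.57). In the 21 fits that left out 1 library, the lower calls of PLRG1, ISY1 and CPSF2 were lost in 13, 16 and 13. That of ESRP2 was lost in 10 of the 16 such fits that tested it, whereas RBM45 stayed called in all 21. Of the higher calls, RBM6 and THOC1 were lost in 18 each, UPF3A and WDR33 in 13 each, EFTUD2 in 5 and QKI in 1. The other higher genes named here stayed called in all 21.

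The 3 innate RNA sensors varied more within groups than between them. DDX58 (RIG-I) had 17.95, 41.2, 50.1, 96.8 and 33.9 normalized counts in group 1, 47.3, 20.8, 75.5, 43.3 and 45.5 in group 2a, 42.9 to 91.2 (median 68.8) in group 2b and 64.0, 78.3, 86.3, 80.6 and 54.5 in group 3. DDX60, an interferon-induced cofactor, ran from 7.6 to 216 in group 1 and from 58.4 to 363 in group 2a, and from 80.1 to 386 in group 2b and 110 to 242 in group 3. DHX58 (LGP2), the relative of RIG-I without a signalling domain, had 34.0 to 154 in group 1, 69.6 to 105 in group 2a, 62.4 to 124 in group 2b and 68.5 to 195 in group 3. None of them was called in any comparison, and within group 1 the same library, replicate 4, was the highest for all 3.

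The 2 most counted genes of each role class were also examined, and those of the larger classes are given here. DDX17, a helicase of transcription and microRNA processing, had means of 1299 ± 247, 1253 ± 199, 1295 ± 87.4 and 1271 ± 196 normalized counts (SD, n = 5, 5, 6 and 5) in groups 1, 2a, 2b and 3, which differed by less than the spread between samples. HNRNPK had 2410 ± 153, 2084 ± 109, 2002 ± 81.4 and 2291 ± 234 in the same order, and HNRNPA2B1 2216 ± 414, 2231 ± 249, 1787 ± 132 and 1672 ± 232. SRSF9 had 1151 ± 91.0, 1010 ± 109, 895 ± 84.8 and 1087 ± 110, lowest in group 2b. DDX5, the close relative of DDX17, had 325 ± 76.7, 457 ± 42.0, 456 ± 56.9 and 364 ± 110, higher in the stage 2 groups, and its difference of the stage steps was 0.82 (SE 0.254, adjusted p = 0.0601, edgeR). DESeq2 called HNRNPA2B1 in group 2b against group 2a, as 1 of 4 of the set (4.65%) against 20.5% of all genes, and HNRNPK, SRSF9 and DDX5 in the difference of the stage steps, as 3 of 15 of the set (17.4%) against 8.57% of all genes.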

How the data were processed

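RNA of formalin-fixed canine histiocytomas was sequenced with QuantSeq 3′ libraries. In the authors' pipeline Cutadapt trimmed the reads, STAR placed them on UU_Cfam_GSD_1.0 and DESeq2 compared groups, and the submitters' processing notes also name featureCounts. The deposited values are the raw count of each gene and a normalized count (signal), which was checked to be the count divided by 1 size factor per sample (0.855 to 1.27). The authors' own log2 fold changes and p-values were also deposited and not used. The number of per-sample columns of unknown samples was 0. A 3′ count tags transcripts near their end, so levels were not compared between genes. The reference held positions and no sequences.

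The labels gave each sample's group and replicate number. Tests used edgeR 4.0.16 (R 4.3.3; TMM factors, quasi-likelihood) on the samples of the 2 compared groups, with at least 10 counts in at least 5 of them. Standard errors are on the log2 scale, and 95% intervals are 1.96 SE. Single genes also had 2-sided exact permutation tests (scipy 1.17.1, pseudocount 1). The genes and lists were chosen with earlier results of these data known. Named genes were those called, those called by DESeq2, those without overlap, the 2 most counted of each role, the RNA sensors, and up to 3 called genes of each list in each direction. Alternatives were DESeq2 1.42.0, limma-voom (limma 3.58.1), other factors and filters, all 4 groups in 1 fit, a block by replicate number, covariates for DV200 or RQN (an RNA integrity score), pooled or single-dog samples of group 2b, a log2 fold change of at least 1, and leaving out each sample. On simulated data edgeR found 3% of 200 genes changed 2-fold and 75% of those changed 4-fold with the design of groups 2a and 1, 42% and 81.5% with that of groups 3 and 2b, and 28% and 87.5% with that of groups 2b and 2a. Figures were drawn with matplotlib 3.10.9.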

Additional observations from a re-analysis of the deposited data

Results flagged for a closer look

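Among the 29 named genes of the set, each tested in 4 groups for a sample far from the others, 5 of 116 tests were positive, 4.31%, and chance alone gives about 1 in 20. In group 1, replicate 5 was highest for DDX24 (330.0 normalized counts, the next sample 266) and for DDX28 (67.7, next 51.0), and replicate 4 was lowest for HNRNPA2B1 (1497, next 2249). In group 2a, replicate 3 was highest for SRSF9 (1199, next 996), and in group 3, replicate 1 was lowest for SRSF11 (597, next 919).

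The 8 genes whose stage steps differed between the tumor cell-enriched and the lymphocyte-enriched groups by edgeR's test of the difference itself had values of 1.29 (DDX46), 1.15 (DDX55), 2.19 (DDX52), 2.43 (DDX59), 0.79 (SRSF4), 1.82 (DHX57), 2.19 (HNRNPC) and 1.02 (SRSF11) on the log2 scale.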

How the results depend on the processing

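The 25 log2 fold changes of named genes of the set kept their direction in all 611 values under the alternatives run, of which 84 were no longer past the threshold and 16 newly past it. These genes were named for calls or separated samples in the same data, and the alternatives reuse most of those samples. A reversal was therefore unlikely from the start. The number of genes of the set called moved more, and the number of all genes called stands in brackets beside it. For group 2a against group 1 it was 2 (59), and 0 (72) without a count filter, 4 (100) with the filter over all samples, 8 (632) with DESeq2, 3 (105) with limma-voom, 7 (453) with all 4 groups in 1 fit, 0 (0) with DV200 and 0 (2) with RQN as a covariate, and 0 to 2 (0 to 103) without 1 library. For group 3 against group 2b it was 0 (13), and 2 (185) with DESeq2, 0 (0) with RQN as a covariate and 0 (0 to 78) without any 1 library. For group 2b against group 2a it was 2 (1909), and 0 (1102) at a log2 fold change of at least 1, 1 (1811) without a filter, 4 (2372) with DESeq2, 0 (42) with RQN, 1 (1352) with only pooled and 0 (111) with only single-dog samples of group 2b, and 0 to 2 (1497 to 1967) without 1 library. For the difference of the stage steps it was 8 (668), and 15 (1072) with DESeq2, 1 (60) with DV200, 0 (0) with single-dog samples only and 6 to 10 (331 to 757) without 1 library. The cause was not tested, except that fewer samples entered some of these fits.

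Replicate numbers are shared between groups but belong to different dogs, and same-numbered samples correlated at -0.29 to 0.14 in their deviations from the group means, so the numbers do not pair the samples. With the replicate block 0 genes of the set were called in group 2a against group 1 (0 of all genes) and 0 in group 3 against group 2b (1 of all genes). There were 0 in group 2b against group 2a (1290 of all genes) and 6 in the difference of the stage steps (459 of all genes).

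Depth limits DDX52, DDX59, DHX35 and HNRNPC, which rest on few counts in some samples, and intervals cover the spread between samples, which are few. Outside the set it limits TAF15, QKI and ESRP2, which had too few counts to be tested in every stage comparison. Group 1 had the lowest mean DV200, whose part in the stage 1 values was not tested beyond the covariate fits.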
